A study of Arabidopsis thaliana with 6 samples.

Results

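The genes described here are the neighbours of the 2 genes mutated in the nsra/b line of Arabidopsis thaliana, and the question was whether their transcript levels differed between nsra/b and Col-0 plantlets. NSRa (AT1G76940) and NSRb (AT1G21320) encode nuclear speckle RNA-binding proteins, and both lie on chromosome 1. Members were set by gene identifier, with earlier results of these data known. They are the rows of the count table with an identifier ending in 0, without the NSR genes themselves. The identifiers run from AT1G20900 to AT1G21700 around NSRb and from AT1G76500 to AT1G77070 around NSRa. This gave 132 genes among the 44200 features of the table, 77 around NSRb and 55 around NSRa. The identifiers follow the order of the genes on the chromosome, with AT1G77040 the only one out of place in the TAIR10.1 annotation. The NSRb neighbourhood spans 352 kb (chr1:7272526-7624166) and the NSRa neighbourhood 249 kb (chr1:28704963-28953580), and 21.1 Mb separate them.

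The study compared 3 RNA libraries of nsra/b with 3 of Col-0, the wild type accession in whose background the mutant was made. nsra/b combines T-DNA insertions in both NSR genes, SALK_003214 for NSRa and a SAIL line for NSRb. Per the labels, all plantlets were 14 days old when moved for 24 h to mock medium, which held no added auxin, and were harvested at 15 days. RNA of whole plantlets was sequenced as stranded polyadenylated libraries, and the authors deposited the number of reads counted on each gene.

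Neighbours of an inserted gene are of interest for reasons known from plant genetics in general. A T-DNA is a stretch of foreign DNA that can carry its own promoters or enhancers, a line can hold rearranged DNA or a second mutation close to the insertion, and neighbouring genes are inherited with the insertion when the line is crossed. None of these was tested here, because gene counts contain neither the insertion site nor the sequence of the plants. Both neighbourhoods are also of interest as copies of each other. Arabidopsis descends from an ancestor whose whole genome was duplicated, and many of its chromosome stretches still have a second, partly thinned copy in which related genes stand in the same order. NSRa and NSRb are such a pair.

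The NSR genes were examined first as a check of the labels. NSRa had 4987, 5898 and 5577 counts in the libraries labelled nsra/b, against 396, 519 and 441 in those labelled Col-0. In CPM (the count scaled to 1000000 counted reads, the unit used below), that is 190 in nsra/b against 15.1 in Col-0, and all 3 nsra/b libraries stood far above all 3 of Col-0. The log2 fold change, here always nsra/b over Col-0, was 3.65 (adjusted p = 4.27e-37 in the quasi-likelihood test of edgeR, Benjamini-Hochberg adjusted over all tested features). NSRb was scarce, with 81, 78 and 88 counts in nsra/b against 17, 25 and 25 in Col-0. Its log2 fold change was 1.93 (standard error, SE, 0.18, adjusted p = 1.51e-09 in the same test). Both genes were therefore higher in the libraries labelled as their mutant, which goes against what a loss of transcript would give. Insertion mutants can make transcripts that are not intact, and a count over the whole gene does not show whether the RNA crosses the insertion. The genotype names below are those of the labels, and every direction rests on them.

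Counts per library came to between 25936176 and 32578330. Of the 44200 features, 21606 were high enough to test. At an adjusted p under 0.01, the threshold used for every call, 1914 of them (8.86%) were called. The median absolute log2 fold change over all tested features was 0.08, and the common biological coefficient of variation was 0.0203, so that differences of a few percent could pass the test. The methods describe biological replicates without saying how plantlets were divided among them. Because the analysis was of whole plantlets, fewer cells of a type and less RNA per cell cannot be told apart. The summed level of 3 shoot marker genes was 24704 to 25184 CPM in nsra/b against 26523 to 27948 CPM in Col-0, and CAB1 was the 1 of the 3 that was called (log2 fold change -0.21, adjusted p = 2.81e-08). Of 3 root markers, 2 were high enough to test and neither was called, with sums of 10.6 to 11.9 CPM in nsra/b against 9.86 to 10.8 CPM in Col-0. Floral and seed storage markers were near 0, with sums of at most 0.133 CPM in nsra/b and 0.297 CPM in Col-0. The part of the lower shoot marker sum in any result below was not tested.

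Of the 132 neighbours, 110 were high enough to test, 62 around NSRb and 48 around NSRa. A further 9 gave between 1 and 12 counts in their highest library, and 13 had 0 counts in all 6 libraries, 9 around NSRb and 4 around NSRa. All 8 pseudogenes among the members lie around NSRb. Most neighbours differed little between the genotypes. Their median absolute log2 fold change was 0.08, as over all features, their median log2 fold change was -0.01, and 3 genes exceeded an absolute value of 0.5. These were PILS4 and AT1G76960, described below, and AT1G21510, named after its value was seen, which had 16, 20 and 21 counts in nsra/b against 24, 31 and 31 in Col-0 and was not called (log2 fold change -0.54, SE 0.24, adjusted p = 0.134 in edgeR).

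Among the 110 tested neighbours, 8 were called higher in nsra/b (7.27%, against 5.28% of all tested features) and 8 lower (7.27%, against 3.58%). The 16 calls made 14.5% of the neighbours, beside 8.86% of all tested features and 9.18% of the 4980 tested chromosome 1 genes with an identifier ending in 0. Around NSRa, 6 genes were called higher and 3 lower among 48 (18.8%). Around NSRb, 2 were called higher and 5 lower among 62 (11.3%). The CPM values of the 3 nsra/b libraries all lay on one side of the 3 Col-0 libraries for 39 of the 110 neighbours (35.5%), beside 30.0% of all tested features. The calls are few and many of them rest on small differences. DESeq2, another count test, called 6 of the 48 genes around NSRa and 1 of the 62 around NSRb. That is 7 of the 110 neighbours, beside 1087 of the 21606 tested features. Of the 16 edgeR calls, 5 held whichever library was left out, namely EXT4, AT1G76960, PILS4 and LHCB7 around NSRa and WAK2 around NSRb. Without Col-0 library 1 or Col-0 library 2, the lower calls around NSRb dropped to 1, and without Col-0 library 1 or Col-0 library 3 those around NSRa dropped to 0.

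**Figure D1:**
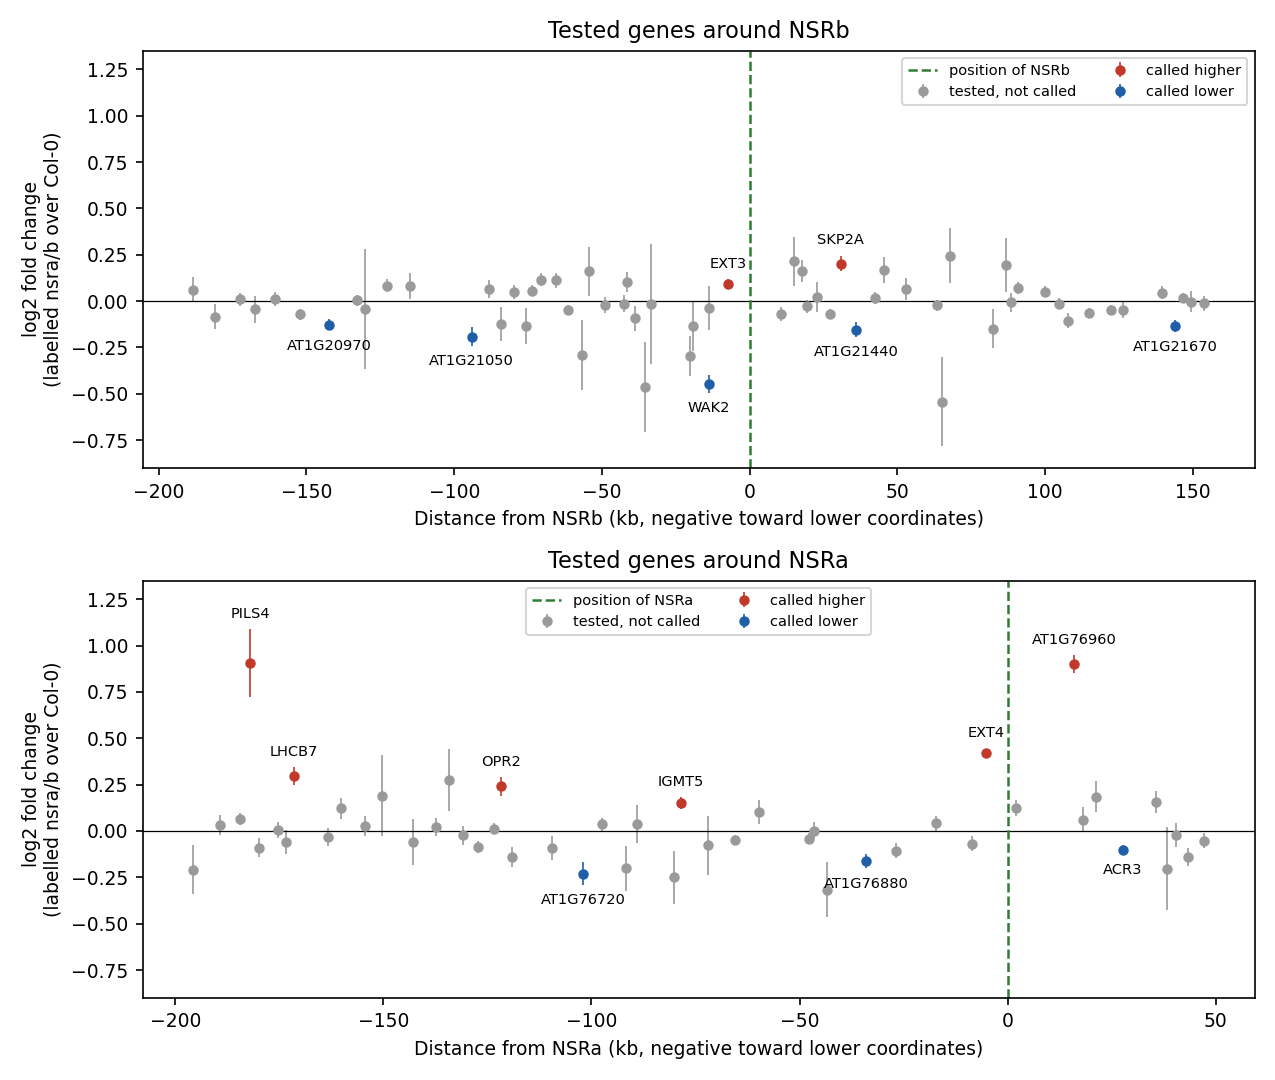
Log2 fold change (nsra/b over Col-0, bars show its standard error) of each tested neighbour against its distance in kb from NSRb in the upper panel and from NSRa in the lower, with genes called higher in red, called lower in blue and not called in grey. Most genes lie close to 0, EXT4, AT1G76960 and PILS4 around NSRa and WAK2 around NSRb are the called genes farthest from it, and 2 uncalled genes around NSRb, WAK4 and AT1G21510, lie as far below 0 as WAK2 with longer error bars.

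The gene next to NSRa in the direction of transcription is EXT4 (AT1G76930), and it was higher in nsra/b. EXT4 encodes an extensin, a hydroxyproline-rich glycoprotein that is cross-linked into the plant cell wall. It lies at chr1:28895301-28897120 on the minus strand, the strand of NSRa, and 5.20 kb separate the genes, EXT4 being downstream of NSRa. Its level was 350.5, 365 and 349 CPM in nsra/b, against 267, 265 and 264 CPM in Col-0. The mean was 33.7% higher in nsra/b, and the groups were far apart relative to the spread within them (355 ± 9.01 CPM in nsra/b and 265 ± 1.34 CPM in Col-0, SD, n = 3 each). This is a log2 fold change of 0.42 (SE 0.02, adjusted p = 6.36e-15 in edgeR's quasi-likelihood test), and leaving out single libraries kept it between 0.40 and 0.43. Gene counts do not show where the additional EXT4 reads start, so whether transcription ran on from NSRa was not tested.

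On the other side of NSRa, the largest difference was that of AT1G76960, an uncharacterized protein-coding gene at chr1:28920317-28920976, also on the minus strand, whose nearest end is 15.9 kb from NSRa. Counts were 863, 1013 and 985 in nsra/b, against 503, 549 and 533 in Col-0. In CPM these are 33.2, 33.0 and 32.8 in nsra/b, against 18.7, 16.9 and 17.6 in Col-0. Every nsra/b library was thus well above every Col-0 library, and the mean was 86.6% higher. The log2 fold change was 0.90 (SE 0.05, adjusted p = 5.05e-16 in edgeR's quasi-likelihood test), and it was between 0.87 and 0.94 when single libraries were left out.

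The other members on this side of NSRa differed less. AT1G76955, which is no member because its identifier does not end in 0, lies 552 bases from AT1G76960 and was also higher (log2 fold change 0.59, adjusted p = 0.000175 in edgeR). PRAF1 (AT1G76950) encodes a protein with RCC1 repeats and a FYVE domain and is the nearest member to NSRa at 2.02 kb. It lies on the opposite strand, between NSRa and AT1G76960. It had 29.5, 30.0 and 29.1 CPM in nsra/b against 27.5, 26.5 and 27.4 CPM in Col-0. These groups did not overlap, yet the log2 fold change of 0.12 (SE 0.04) missed the threshold (adjusted p = 0.0502 in edgeR). Beyond AT1G76960, AT1G76970 had a log2 fold change of 0.06 (adjusted p = 0.626) and AT1G76980 of 0.19 (adjusted p = 0.137), neither past the threshold. ACR3 (AT1G76990), which encodes a protein with ACT domains, the amino acid binding modules of many metabolic enzymes, was lower by a small margin. Its level was 162, 161 and 161 CPM in nsra/b against 173, 173 and 172 CPM in Col-0. The log2 fold change was -0.10 (SE 0.02, adjusted p = 0.00433 in edgeR), and the call held in 1 of the 6 fits with a library left out. It was lost without nsra/b library 2 or 3 or any Col-0 library, with adjusted p between 0.0155 and 0.0281.

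Past EXT4, the next genes away from NSRa did not pass the test. AT1G76920 had 35.8 ± 0.246 CPM in nsra/b and 37.6 ± 1.30 CPM in Col-0 (SD, n = 3 each). AT1G76910 had 0 counts in 5 libraries and 2 counts in 1 Col-0 library. TLP1 (AT1G76900), a tubby-like protein, had a log2 fold change of 0.04 (adjusted p = 0.563 in edgeR). GT2 (AT1G76890), a trihelix transcription factor that binds light-responsive promoters, had one of -0.11 (adjusted p = 0.0658). Among the 9 tested genes within 5 identifiers of NSRa, EXT4, AT1G76960 and ACR3 were thus the 3 that were called.

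The bases just before the annotated start of 4 of the higher genes are shown, because these are the genes nearest NSRa and NSRb that were called higher and the PILS4 gene described below. Each run is the 120 bases upstream of the gene in TAIR10.1, 5′ to 3′ on the gene's own strand, with a TATAAA match in capitals. EXT4 is from chr1:28897121-28897240, AT1G76960 from chr1:28920977-28921096 and EXT3 from chr1:7455010-7455129, all on the minus strand, and PILS4 is from chr1:28717949-28718068 on the plus strand.
EXT4: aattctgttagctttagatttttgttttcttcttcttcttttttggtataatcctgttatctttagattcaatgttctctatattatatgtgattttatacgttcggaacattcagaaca
AT1G76960: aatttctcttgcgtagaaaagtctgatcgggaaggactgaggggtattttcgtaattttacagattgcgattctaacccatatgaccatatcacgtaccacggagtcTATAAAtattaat
EXT3: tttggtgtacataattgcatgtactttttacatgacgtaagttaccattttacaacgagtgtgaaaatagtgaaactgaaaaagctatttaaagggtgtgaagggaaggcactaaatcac
PILS4: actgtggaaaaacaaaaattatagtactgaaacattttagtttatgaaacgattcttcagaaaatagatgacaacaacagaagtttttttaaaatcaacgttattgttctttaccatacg
TATAAA, the core of the TATA box, was searched on the gene's strand and occurred in AT1G76960, beginning 13 bases before the start, and in 18.2% of the same windows of 37510 genes. TTGAC, the core of the W-box bound by WRKY factors, was searched on both strands, was in none of the 4 and occurred in 24.3% of those windows. A match of letters is not evidence of a site, and its lack says nothing about a factor.

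Further from NSRa, on the side of EXT4, PILS4 (AT1G76530) and LHCB7 (AT1G76570) were higher. PILS proteins are carriers of the endoplasmic reticulum that hold auxin inside the cell. PILS4 was a scarce transcript, with 59, 69 and 57 counts in nsra/b against 29, 45 and 28 in Col-0. It averaged 2.14 ± 0.207 CPM in nsra/b and 1.13 ± 0.236 CPM in Col-0 (SD, n = 3 each), without overlap, and lies 182 kb from NSRa. Its log2 fold change was 0.91 (SE 0.18, adjusted p = 0.000513 in edgeR), and at least 0.77 when single libraries were left out. PILS3 (AT1G76520), which ends just before PILS4 on the same strand, had 57.0 ± 2.20 CPM in nsra/b and 54.5 ± 0.839 CPM in Col-0 (adjusted p = 0.238 in edgeR). LHCB7 encodes a chlorophyll-binding protein of the light-harvesting family. It had 36.4, 33.5 and 32.3 CPM in nsra/b against 29.2, 28.7 and 25.3 CPM in Col-0, every nsra/b library above every Col-0 one. The log2 fold change was 0.30 (SE 0.05, adjusted p = 4.95e-05 in edgeR), opposite in sign to that of the shoot marker CAB1.

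The other called genes around NSRa changed by at most 18.1%. OPR2 (AT1G76690) is a 12-oxophytodienoate reductase of the family that includes an enzyme of jasmonate synthesis, and was higher, with 20.5, 21.9 and 21.0 CPM in nsra/b against 17.7, 17.8 and 18.3 CPM in Col-0 (log2 fold change 0.24, SE 0.05, adjusted p = 0.001 in edgeR). Without nsra/b library 2 the adjusted p was 0.012, and DESeq2 did not call it (adjusted p = 0.0233). OPR1 (AT1G76680), its neighbour, had 119 ± 5.23 CPM in nsra/b and 118 ± 0.837 CPM in Col-0 and was not called (adjusted p = 0.851). The annotated ends of OPR1 and OPR2 overlap on the same strand. The Union mode of counting that the methods name leaves out reads that overlap both genes. AT1G76720, annotated as an eIF-2 family protein, was lower with 15.2, 15.7 and 13.3 CPM in nsra/b against 17.5, 17.5 and 16.7 CPM in Col-0 (log2 fold change -0.23, SE 0.06, adjusted p = 0.00809). Without nsra/b library 3 its adjusted p was 0.101, and it missed the threshold without any one of the Col-0 libraries as well (0.0141 to 0.0411). AT1G76880, a trihelix-type DNA-binding protein, was lower with 36.6 ± 0.728 CPM in nsra/b and 41.0 ± 0.865 CPM in Col-0 (log2 fold change -0.16, adjusted p = 0.00239). Its adjusted p was 0.017 without Col-0 library 1 and 0.0154 without Col-0 library 3. DESeq2 called neither AT1G76720 (adjusted p = 0.0753) nor AT1G76880 (0.0297).

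**Figure D2:**
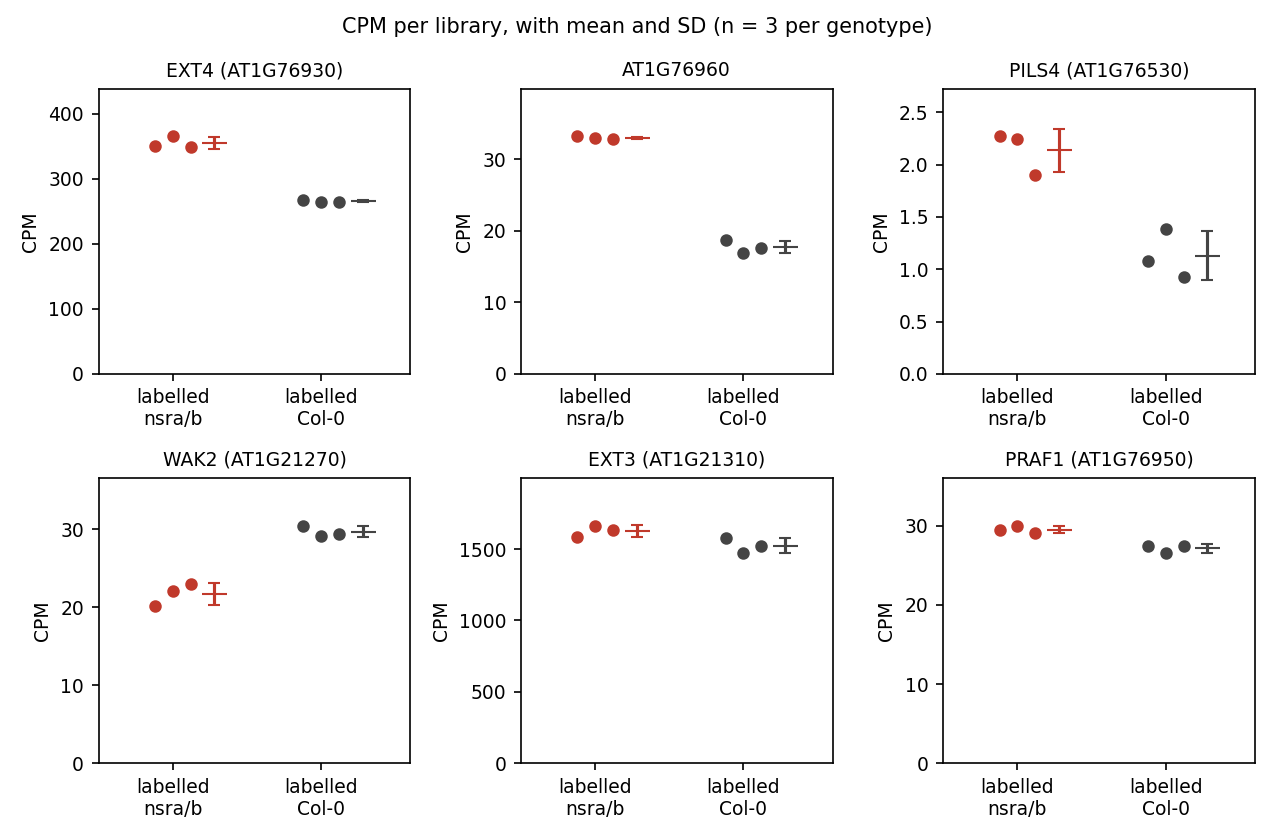
CPM in each library (points) with the mean and SD of each genotype (bars, n = 3 each) for EXT4, AT1G76960, PILS4, WAK2, EXT3 and PRAF1, with nsra/b left of Col-0 in each panel. EXT4 and AT1G76960 separate the genotypes widely, WAK2 separates them in the other direction, and the EXT3 means differ by 6.69%.

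Around NSRb, the largest called difference was that of WAK2 (AT1G21270), which was lower. Wall-associated kinases are receptor-like kinases that span the plasma membrane and bind pectin in the cell wall, and 5 of them, WAK1 to WAK5, form a cluster at lower coordinates than NSRb. WAK2 had 523, 677 and 688 counts in nsra/b, against 820, 947 and 894 in Col-0. The levels were 20.1, 22.0 and 22.9 CPM in nsra/b, against 30.5, 29.2 and 29.5 CPM in Col-0, with a clear gap between the genotypes. That is a log2 fold change of -0.45 (SE 0.05, adjusted p = 2.13e-08 in edgeR), and it was between -0.49 and -0.40 when single libraries were left out. WAK2 ends 13.8 kb from NSRb. AT1G21280, a Copia-like feature that lies over the end of WAK2 on the other strand, had 4.73 ± 1.03 CPM in nsra/b and 4.90 ± 0.228 CPM in Col-0 (SD, n = 3 each).

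The other wall-associated kinases had fewer counts. WAK1 (AT1G21250) had 3.69, 3.84 and 4.80 CPM in nsra/b against 4.87, 5.27 and 5.04 CPM in Col-0. These values did not overlap, but the log2 fold change of -0.30 (SE 0.11) missed the threshold (adjusted p = 0.0627 in edgeR). WAK4 (AT1G21210) had 21, 20 and 17 counts in nsra/b against 23, 31 and 29 in Col-0, with a log2 fold change of -0.46 (SE 0.24, adjusted p = 0.223). WAK3 (5, 3 and 12 counts in nsra/b against 5, 12 and 6 in Col-0) and WAK5 (1, 2 and 1 against 4, 5 and 1) were too low to test. Of the 5 kinases, 3 were tested and 1 was called, and the summed level of the 5 was 24.8 to 28.7 CPM in nsra/b against 35.7 to 36.5 CPM in Col-0, with most of the counts from WAK2.

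The gene downstream of NSRb on its strand is EXT3 (AT1G21310), the extensin that corresponds to EXT4 in the other neighbourhood. It lies at chr1:7453245-7455009 on the minus strand, 7.32 kb from NSRb. EXT3 was the more abundant extensin, at 983 CPM per kilobase of exon in nsra/b and 921 in Col-0, against 264 in nsra/b and 198 in Col-0 for EXT4. Its level was 1584, 1663 and 1630 CPM in nsra/b against 1581, 1471 and 1520 CPM in Col-0. The lowest nsra/b library was thus barely above the highest Col-0 library. Its log2 fold change was 0.09 (SE 0.02, adjusted p = 0.00758 in edgeR's quasi-likelihood test), which passed the threshold in 2 of the 6 fits with a library left out. It failed without nsra/b library 2 (adjusted p = 0.0557), nsra/b library 3 (0.0207), Col-0 library 2 (0.13) or Col-0 library 3 (0.0278), and DESeq2 did not call it.

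AT1G21290 and AT1G21300, between WAK2 and EXT3, are pseudogenes with 0 counts in all 6 libraries. On the other side of NSRb, none of the 5 nearest members was called. The nearest member, AT1G21330, is also a pseudogene with 0 counts in every library. AT1G21326 (chr1:7468765-7469995), which is no member because its identifier does not end in 0, lies closer to NSRb. It had 22, 26 and 24 counts in nsra/b against 26, 34 and 27 in Col-0. Its log2 fold change was -0.22 (SE 0.23), and it was not called (adjusted p = 0.585 in edgeR). AT1G21340, which encodes a Dof zinc finger protein, had 2, 5 and 1 counts in nsra/b against 3, 1 and 3 in Col-0. AT1G21350, of the thioredoxin superfamily, had a log2 fold change of -0.07 (adjusted p = 0.249 in edgeR) and GLTP2 (AT1G21360), a glycolipid transfer protein, one of 0.21 (adjusted p = 0.322). AT1G21370 had 16.5, 17.4 and 17.8 CPM in nsra/b against 14.5, 15.3 and 16.5 CPM in Col-0, and its log2 fold change of 0.16 missed the threshold (adjusted p = 0.0587). Of the 10 nearest members, 4 were too low to test around NSRb and 1 around NSRa. The neighbourhood of NSRb is thus less fully covered than that of NSRa.

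The remaining called genes around NSRb changed by at most 15.1%. SKP2A (AT1G21410), an F-box protein that targets cell cycle factors for degradation, was higher, with 32.3, 31.7 and 32.2 CPM in nsra/b against 28.2, 28.4 and 27.0 CPM in Col-0 (log2 fold change 0.20, SE 0.04, adjusted p = 0.000773 in edgeR). Without Col-0 library 3 its adjusted p was 0.0113, and DESeq2 did not call it (0.0166). Lower were AT1G21050, a protein of the MIZU-KUSSEI-like family (log2 fold change -0.19), AT1G21440, of the phosphoenolpyruvate carboxylase family (-0.15), AT1G20970, a protein with a calponin-like domain (-0.13), and AT1G21670 (-0.13). Their adjusted p ran from 0.00463 to 0.00666. Each of these lost its call in 3 to 5 of the fits with a library left out, and all were lost without Col-0 library 1 or Col-0 library 2 (adjusted p from 0.0173 to 0.0542). DESeq2 called none of these 4, with adjusted p from 0.0268 to 0.0627. AT1G21440 shows how narrow the gap could be, with 42.9, 44.7 and 48.7 CPM in nsra/b against 51.0, 51.8 and 48.9 CPM in Col-0.

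The indole glucosinolate O-methyltransferases are present in both neighbourhoods. These enzymes add methyl groups to indole glucosinolates, defence compounds of the cabbage family. IGMT5 (AT1G76790), the member around NSRa, was higher, with 73.5, 75.4 and 77.8 CPM in nsra/b against 68.1, 69.3 and 66.8 CPM in Col-0 (log2 fold change 0.15, SE 0.03, adjusted p = 0.0008 in edgeR), a call that Col-0 library 3 decided narrowly, since without it the adjusted p was 0.0103. Of the 4 members around NSRb none was called. IGMT1 had a log2 fold change of 0.06 (adjusted p = 0.171), IGMT2 of 0.11 (0.0484), IGMT3 of 0.12 (0.0164) and IGMT4 of -0.05 (0.226). IGMT3 passed the threshold without nsra/b library 1 (adjusted p = 0.00227) or Col-0 library 3 (0.00797). The coding sequences of IGMT1 to IGMT4 are 92.5% to 97.4% identical, and each read was given 1 alignment, so the split of reads among these 4 is uncertain. IGMT5 is 75.2% to 76.5% identical to them.

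Reciprocal best matches of translated coding sequences joined 23 neighbours of NSRb with 23 of NSRa, beside the NSR genes themselves, and 22 of these pairs stood in the same order on both sides. Coding identity ran from 68.8% to 87.8% where it could be aligned. All 46 genes were tested, and 6 of them were called, where 8.86% of all tested features were called. The extensins were the only pair with both members called. Their coding sequences were 72.2% identical over 623 aligned bases, and the log2 fold change of EXT4 exceeded that of EXT3 by 0.33, a difference that was not tested. In 4 pairs 1 member was called, namely IGMT5 but not IGMT1, SKP2A but not SKP2B, AT1G21050 but not AT1G76610, and AT1G21440 but not AT1G77060. The log2 fold change was 0.16 for SKP2B beside 0.20 for SKP2A, and 0.19 for AT1G76610 beside -0.19 for AT1G21050. In the other 18 pairs neither member was called. They include the mitotic cyclin-dependent kinases CDKB2;1 (-0.09) and CDKB2;2 (-0.04), the exocyst subunits SEC5A (-0.04) and SEC5B (-0.01), and the RNA-binding LSM3B (0.00) and LSM3A (0.10), which act in splicing and mRNA decay. The sign of the log2 fold change was shared in 14 of the 23 pairs, and whether unpaired genes share it as often was not tested.

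**Figure D3:**
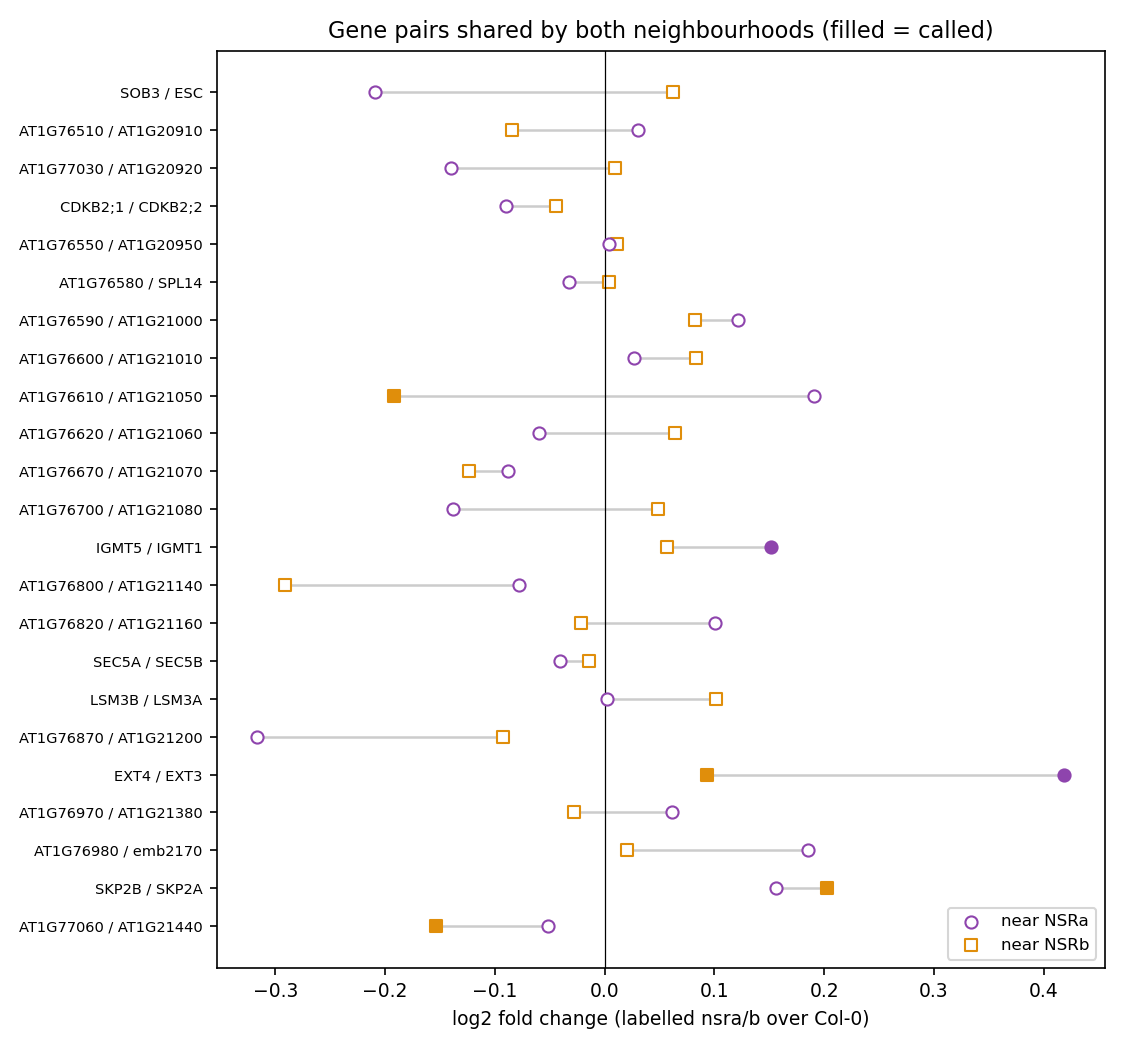
Log2 fold change (nsra/b over Col-0, horizontal axis) of both members of each of the 23 duplicated pairs, 1 pair a line, with circles for the member near NSRa, squares for the member near NSRb and filled symbols for called genes. EXT4 and EXT3 are the only pair with both symbols filled.

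The neighbours were grouped by their distance in identifiers from the NSR gene. Of the 20 genes within 5 identifiers of either NSR gene, 15 were tested and 5 were called (33.3%), 3 higher (EXT3, EXT4 and AT1G76960) and 2 lower (WAK2 and ACR3). From 6 to 15 identifiers away, 4 of 28 were called (14.3%), and further out 7 of 67 (10.4%), beside 8.86% of all tested features. The 2 neighbourhoods differed in this. Around NSRa the shares from near to far were 3 of 9 (33.3%), 2 of 13 (15.4%) and 4 of 26 (15.4%). Around NSRb they were 2 of 6 (33.3%), 2 of 15 (13.3%) and 3 of 41 (7.32%). Over both neighbourhoods the median absolute log2 fold change was 0.11, 0.10 and 0.07 in the 3 distance classes. With 15 genes the nearest class is small, and its calls on EXT3 and ACR3 were each lost when single libraries were left out, as given above. PILS4 and LHCB7, among the larger differences, belong to the farthest class. The genes on the strand of their NSR gene were called in 6 of 56 cases (10.7%) and those on the other strand in 10 of 54 (18.5%), again beside 8.86% of all tested features. Neighbouring genes are not replicates, so no test was made between these classes. Without EXT4 and AT1G76960, which were singled out after their values were seen, 14 of 108 neighbours were called (13.0%).

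**Figure D4:**
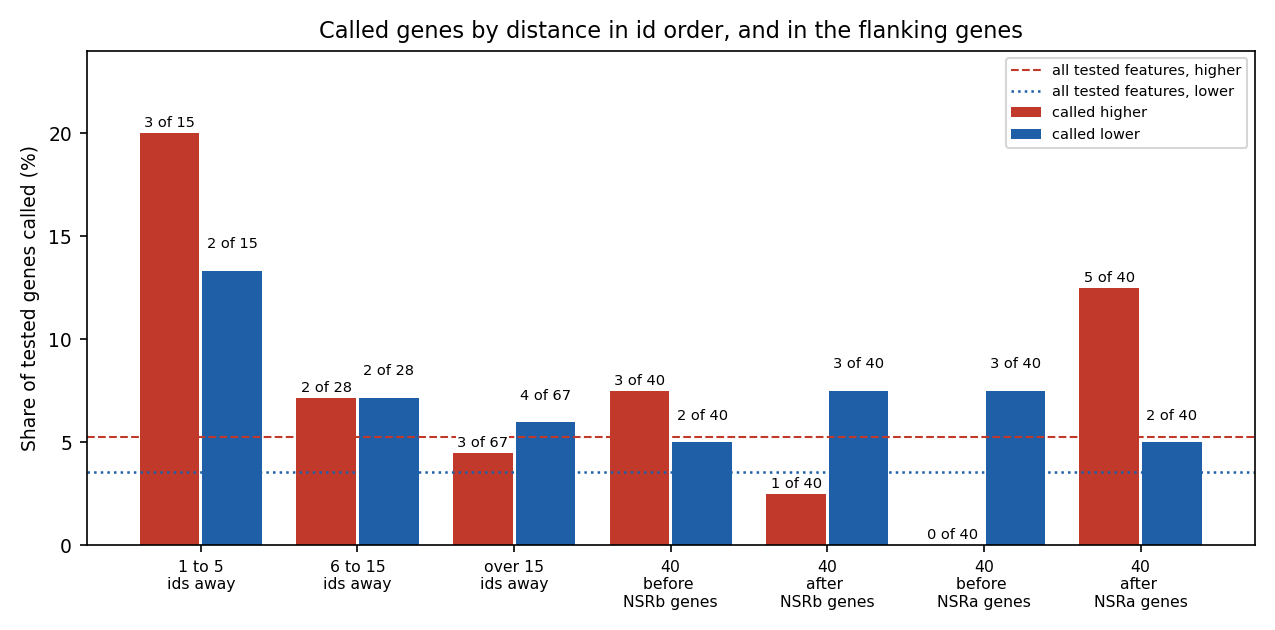
Percentage of tested genes called higher (red) and called lower (blue) in the distance classes of the neighbourhoods and in the 40 tested genes beyond each end of them, with counts above the bars and the shares over all tested features as horizontal lines. The nearest class has the tallest bars, from 3 higher and 2 lower genes of 15.

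The genes just outside the neighbourhoods gave the following shares. Among the 40 tested identifiers on each outer side, 5 were called before the NSRb neighbourhood (12.5%) and 4 after it (10%), 3 before the NSRa neighbourhood (7.5%) and 7 after it (17.5%). Over all tested features the share was 8.86%. The largest difference of these 160 genes was that of AT1G21890, after the NSRb neighbourhood, a scarce transcript that was called lower. It had 0.123 CPM in nsra/b against 0.413 CPM in Col-0 (log2 fold change -1.67, adjusted p = 0.00972 in edgeR). The next largest was AT1G20390, before the NSRb neighbourhood, with 88.4 CPM in nsra/b against 41.9 CPM in Col-0 (log2 fold change 1.07, adjusted p = 9.76e-17 in edgeR). Both exceed in size every difference among the neighbours themselves, whose log2 fold changes ran from -0.54 to 0.91. The share called around NSRb (11.3%) lay between those of its outer sides, and the share called around NSRa (18.8%) lay just above the higher of its own. NSRa does not lie in the middle of its neighbourhood. Its members reach 196 kb away at lower coordinates but 47.2 kb away at higher ones, against 188 kb and 154 kb for NSRb. The 40 genes after the NSRa neighbourhood thus start at its nearer end, and inside against outside is not near against far there.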

How the data were processed

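The 6 libraries (3 nsra/b, 3 Col-0) were grouped by their labels. The members and gene lists were chosen with earlier results of these data known. Raw read counts per gene were deposited by the authors, who filtered reads with fastqc, aligned pairs with tophat, kept 1 alignment per read, and counted with summarizeOverlaps (strand specific, Union mode) on Araport11 genes merged with cufflinks loci. The submitters' processing notes name TAIR 10. Methods and labels differ in seedling age and read length.

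The whole table was fitted with edgeR 4.0.16 in R 4.3.3 (TMM, filterByExpr with minimum count 10 and total 15, quasi-likelihood test, genotype only, Benjamini-Hochberg adjustment). CPM were scaled to the counts on tested features times TMM factors. SE was derived as the size of the log2 fold change divided by the root of F, and DESeq2 1.42.0 gave larger SE for all tested neighbours. A floor of 3 counts is 0.0925 to 0.115 CPM. It covers counting error only. The test was run on simulated data first. Alternatives were DESeq2 size factors, no filter, DESeq2, Bonferroni adjustment, a minimum fold, the replicate number as a block, each library left out and, added after seeing the data, a fixed coefficient of variation.

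Genes named are the 5 identifiers on each side of an NSR gene, up to 10 called genes per neighbourhood with the largest change and no overlap, the families described and duplicated pairs with a called member. Other pairs, AT1G21326, AT1G21510, AT1G76952, AT1G76955, AT1G20390 and AT1G21890 were named after their values were seen. Pairs were to be matched by protein. No protein table was at hand, so coding sequences were compared in translation (tblastx, blast 2.17.0, E at most 1e-10). Positions and sequences are from RefSeq's TAIR10.1.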

Additional observations from a re-analysis of the deposited data

How the results depend on the processing

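With DESeq2 size factors in place of TMM, and with no filter, all 16 calls remained, and 1 gene more, IGMT3, was called with no filter (adjusted p = 0.00776). Around NSRb, higher calls (2) became 0 with DESeq2, 0 with Bonferroni adjustment, 0 with a minimum log2 fold change of 1 in size and 0 with the biological coefficient of variation fixed at 0.1, and lower calls (5) became 1, 1, 0 and 0. Around NSRa, higher calls (6) became 5, 2, 0 and 2, and lower calls (3) became 1, 0, 0 and 0. Of the 16 calls, 7 remained with DESeq2, 3 with Bonferroni adjustment (WAK2, EXT4 and AT1G76960), 0 with the minimum fold and 2 with the fixed coefficient (PILS4 and AT1G76960). The fixed coefficient, used with a likelihood ratio test, was chosen after seeing the data. With each library left out, there were 1 to 3 higher and 1 to 4 lower calls around NSRb, and 5 to 6 higher and 0 to 3 lower around NSRa. These fits have fewer samples, and between 8 (without Col-0 library 3) and 13 (without nsra/b library 1) of the 16 calls remained. Among the named genes, AT1G21280, OPR1 and TLP1, none of them called, changed sign without nsra/b library 1 or 2, and no called gene did so under any alternative run.

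With the replicate number as a block, higher calls around NSRb were 3 against 2, IGMT3 being added (adjusted p = 0.00586), and the other counts stayed at 5, 6 and 3. Samples sharing a number did not deviate together (correlations -0.01, 0.02 and 0.05), so the numbers were not taken as pairs.

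All calls but those of PILS4 and AT1G76960 depend on the small spread among the replicates, since the fixed coefficient ended them (adjusted p = 0.0317 for EXT4, 0.0261 for WAK2 and at least 0.396 for the others). Transcripts with few counts, such as the WAK3 and WAK5 kinases, could not be tested at this depth, and gene counts do not show where reads lie within a gene.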

Other observations

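The stretches of chromosome also hold features whose identifiers do not end in 0, which are not among the 132 genes. Of 28 such features around NSRb, 5 were high enough to test and 0 were called by edgeR. Of 26 around NSRa, 7 were tested and 1 was called, where 8.86% of all tested features were called. That gene, AT1G76955 (chr1:28918791-28919764, minus strand), lies 552 bases from AT1G76960 on the same strand, between it and PRAF1. It had 167, 156 and 158 counts in nsra/b, against 104, 114 and 112 in Col-0, without overlap. The level was 5.59 ± 0.727 CPM in nsra/b and 3.69 ± 0.175 CPM in Col-0 (SD, n = 3 each), a log2 fold change of 0.59 (SE 0.11, adjusted p = 0.000175 in edgeR's quasi-likelihood test, and 0.00318 in DESeq2). AT1G76955 and AT1G76960 were thus adjacent genes on the strand of NSRa that were both higher in nsra/b. Between them and NSRa lie PRAF1, on the other strand, and AT1G76952 (chr1:28914446-28915102), on the strand of NSRa. AT1G76952 had 48, 57 and 59 counts in nsra/b against 47, 53 and 51 in Col-0. Its log2 fold change was 0.17 (SE 0.16), and it was not called (adjusted p = 0.565 in edgeR).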
